A study of Mus musculus with 6 samples.

Results

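The G protein gamma subunits studied here are the 10 genes *Gng2*, *Gng3*, *Gng4*, *Gng5*, *Gng7*, *Gng8*, *Gng10*, *Gng11*, *Gng12* and *Gngt2*, out of 55401 gene identifiers counted in mouse tibia. They were taken by gene symbol. *Gng4* was chosen by its counts in these same libraries, where an earlier comparison found it lower in Atrx-cKO than in control, and the others joined it as members of its family. The genotype difference of *Gng4* is therefore described without a test, and the other 9 genes were tested. All 10 passed the filter on low counts that left 20636 genes for testing.

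RNA came from whole tibias of 8-week-old mice. Libraries called Atrx-cKO (3 libraries) had the genotype Osterix-Cre; Atrxf/y, and control libraries (3) had the genotype Atrxf/y. All 6 libraries thus carried the floxed allele of *Atrx*, a chromatin remodeler gene on the X chromosome, and only the Atrx-cKO libraries carried the Cre transgene. The transgene is a Tet-off cassette under *Sp7* (*Osterix*) regulatory sequence and acts in preosteoblasts, and doxycycline kept it silent until 3 weeks of age. No library had the transgene with an intact *Atrx*, so effects of the transgene and of *Atrx* loss cannot be told apart. The labels number the libraries of each genotype without saying that each came from its own mouse, so the p values measure the spread between these libraries.

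A gamma subunit is a small protein that stays bound to a beta subunit, and the pair works with an alpha subunit as the heterotrimeric G protein behind G protein–coupled receptors. When a receptor is activated, the alpha subunit and the beta-gamma pair part and each acts on its own effectors, such as ion channels, adenylyl cyclases and phospholipases. A lipid joined to a cysteine near the end of the gamma subunit holds the complex at the membrane. In bone, receptors that use G proteins include those for parathyroid hormone, prostaglandins and cannabinoids. *Gng3*, *Gng4*, *Gng7* and *Gng8* are known mostly from neurons, *Gngt2* from cone photoreceptors, and *Gng5*, *Gng10*, *Gng11* and *Gng12* from many tissues.

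The place where the lipid is attached separates the family, and the ends of the coding sequences are shown for that reason. Each line gives the last 24 coding bases in the sense direction, from GENCODE M21 transcripts on GRCm38, with the final 4 codons before the stop codon (12 bases, the CAAX box) in capitals.
Gng4: aagttcttcTGCACCATCCTCtaa
Gng2: aagttcttcTGCGCCATCCTTtaa
Gng3: aagttcttcTGTGCGCTCCTCtga
Gng12: aagaagaccTGCATCATCTTAtag
Gng11: aagggcagcTGTGTCATTTCAtaa
Gngt2: aaaggcactTGTGTGCTAAGCtga
All begin the box with a cysteine codon. In *Gng4*, *Gng2*, *Gng3* and *Gng12* the last codon of the box encodes leucine, the ending that directs a geranylgeranyl lipid, and 8 of the 10 members end so. *Gng11* and *Gngt2* end in a serine codon, the ending that directs a farnesyl lipid. The coding sequences of the 10 genes encode 68 to 75 residues. In alignments of the translated sequences, *Gng4* was closest to *Gng2* at 76.1% identity, followed by *Gng3* at 68.0% and *Gng8* at 64.3%. It shared 38.1% with *Gng11* and 34.8% with *Gngt2*, which were 65.2% identical to each other.

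Counts on genes ranged from 50977777 to 70571655 per library, so that a floor of 3 counts stood at 0.0425 to 0.0588 CPM (counts scaled to a library of 1000000) before normalization. That floor covers counting error only. *Atrx* itself was at 153 to 171 CPM in Atrx-cKO and 165 to 174 CPM in control, overlapping ranges of a count over the whole gene and the whole bone that gives no check of the deletion. Fewer cells of a type and less RNA per cell cannot be told apart in such bulk samples. Apart from that floor, CPM here and below are scaled by the TMM method, which adjusts library sizes so that most genes match between libraries.

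*Gng4*, chosen for this difference, was lower in every Atrx-cKO library than in every control library. A separation in this direction was found in 4.01% of all tested genes. The gene (ENSMUSG00000021303) occupies positions 13784059 to 13827896 on the plus strand of chromosome 13 in GRCm38. The Atrx-cKO libraries, in the order of replicates 1, 2 and 3, gave 494, 422 and 664 counts, or 8.45, 7.39 and 11.3 CPM. The controls gave 736, 1951 and 1088 counts, or 12.9, 29.3 and 22.9 CPM. Control replicate 1 thus lay close above the Atrx-cKO libraries, at 1.14 times the highest of them, and control replicates 2 and 3 lay far above. The control mean was 21.7 ± 8.26 CPM (SD, n = 3), and the Atrx-cKO mean was 9.04 ± 2.01 CPM (SD, n = 3). The fitted log2 fold change was -1.26 (standard error 0.30), or 2.40 times as much in control. A lower log2 fold change was found in 275 of the tested genes. *Gng4* exceeded 60.7% of the tested genes in mean CPM in control and 46.2% in Atrx-cKO.

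**Figure D1:**
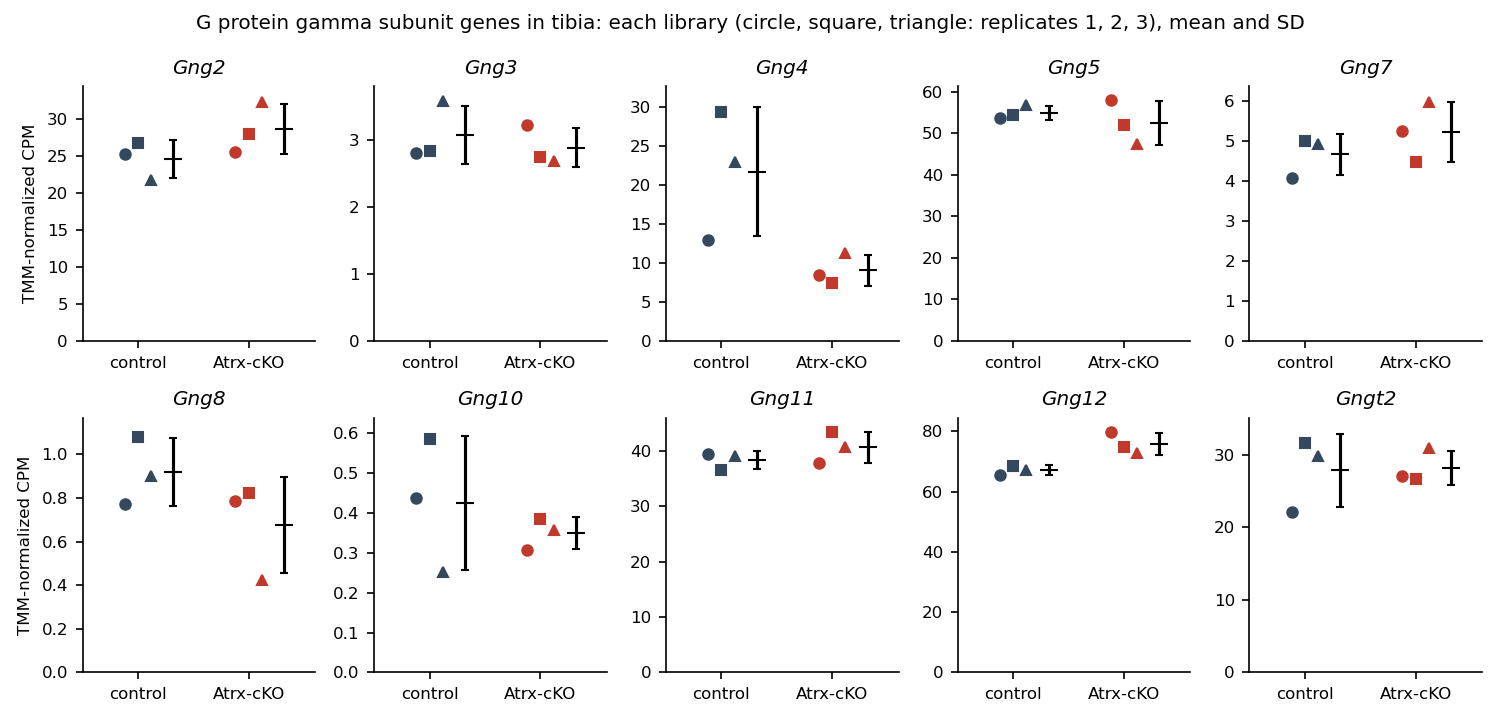
TMM-normalized CPM (vertical axes, each from 0) of the 10 gamma subunit genes in the 3 control and 3 Atrx-cKO libraries; circles, squares and triangles are replicates 1, 2 and 3, and the bar gives the mean and SD. *Gng4* ran from 7.39 to 11.3 CPM in Atrx-cKO and from 12.9 to 29.3 in control, and of the other genes only *Gng12* had groups that did not overlap.

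The control libraries differed among themselves in *Gng4* more than in most of the family. The highest control value was 2.27 times the lowest, and the highest Atrx-cKO value was 1.53 times the lowest. The SD was 38.1% of the control mean for *Gng4*, against 2.39% for *Gng12*, 2.91% for *Gng5*, 4.19% for *Gng11* and 10.3% for *Gng2*. *Gng7*, *Gng3*, *Gng8* and *Gngt2* were at 11.2%, 14.1%, 16.9% and 18.3%. *Gng10*, with few counts, was at 39.3%. Leaving out 1 library at a time moved the log2 fold change of *Gng4* between -1.53, without control replicate 1, and -0.98, without control replicate 2.

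Marker levels of several cell types differed between the libraries. The 6 osteoblast markers (*Bglap*, *Col1a1*, *Sp7*, *Runx2*, *Alpl* and *Ibsp*), all detected, summed to 62383 to 62744 CPM in Atrx-cKO and to 57865, 99286 and 89091 CPM in control replicates 1, 2 and 3. *Col1a1* made up most of this sum. Control replicates 2 and 3, which were high in *Gng4*, were also high in these genes, and control replicate 1 had the lowest sum of the 6 libraries. Taken singly, control replicate 1 was the lowest library in *Col1a1*, *Runx2* and *Alpl* and was not the lowest in *Bglap*, *Sp7* and *Ibsp*. With the mean log2 level of the 6 markers as a covariate, an analysis added after the data were seen, the log2 fold change of *Gng4* was -0.73 (standard error 0.20). The 9 neuron markers summed to 11.9 to 13.05 CPM in Atrx-cKO and 15.5 to 17.0 CPM in control, without overlap. Each had counts in some library, and 8 passed the filter with a median log2 fold change of -0.55. *Tubb3* made up most of the sum, and its groups overlapped. Of the 8, 4 had groups that did not overlap (*Snap25*, *Syt1*, *Stmn2* and *Nefm*), against 8.31% of all tested genes. *Snap25*, *Syt1* and *Nefm* had few counts, at 6 to 16, 5 to 39 and 5 to 65 per library. The 5 Schwann cell markers had a median log2 fold change of 0.26, with overlapping sums. The 4 chondrocyte markers, with *Col2a1* as most of the sum, came to 793 to 1162 CPM in Atrx-cKO and 1086 to 1589 CPM in control. They were not of 1 direction. *Col2a1* and *Acan* had log2 fold changes of -0.56 and -0.66, and *Comp* and *Col10a1* had 0.19 and 1.51, with a list median of -0.18. In *Col10a1*, Atrx-cKO replicate 3 had 31.3 CPM, against 0.68 and 1.19 CPM in replicates 1 and 2, so its value rests on 1 library. The 5 endothelial markers summed to 514 to 528 CPM in Atrx-cKO and to 466 to 506 CPM in control, without overlap. Taken singly, 2 of the 5 (*Kdr* and *Tek*) had groups that did not overlap, against 8.31% of all tested genes. The 5 osteoclast markers had log2 fold changes of -0.68 to -0.21, with overlapping sums. The 5 megakaryocyte markers, of which 4 passed the filter, summed to 1556, 847 and 825 CPM in control replicates 1, 2 and 3. In Atrx-cKO their sums were 1316 to 1398 CPM. Control replicate 1, the lowest control in *Gng4*, was thus the highest control in these markers. The 5 skeletal muscle markers summed to 9438 CPM in control replicate 3 and to 546 to 1871 CPM in the other libraries. *Myh4* gave 4630 CPM of that highest sum. *Myh1* was not raised there, at 52.4 CPM, against 134 and 109 CPM in control replicates 1 and 2. Without control replicate 3 the log2 fold change of *Gng4* was -1.24. In control replicates 2 and 3 the osteoblast covariate was above every Atrx-cKO library, so that fit cannot tell it apart from genotype. The part of any of these markers in the *Gng4* difference was not tested.

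**Figure D2:**
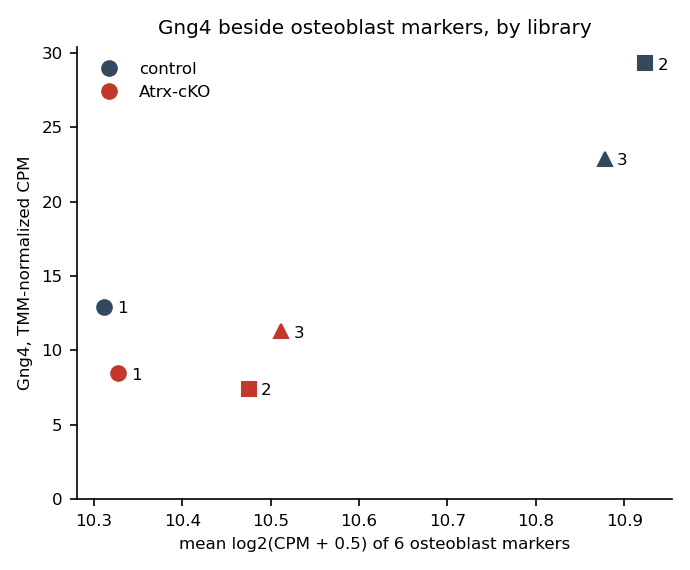
*Gng4* in TMM-normalized CPM (vertical axis) against the mean log2(CPM + 0.5) of the 6 osteoblast markers (horizontal axis) in each library, with replicate numbers beside the points. Control replicates 2 and 3, at 29.3 and 22.9 CPM of *Gng4*, had the highest marker levels, 10.9 on the log2 scale, and control replicate 1 had the lowest, 10.3.

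None of the other 9 gamma subunit genes differed between genotypes beyond the test's threshold. A gene was called where the adjusted p was under 0.05 and expression differed at least by 1 log2 unit, the limits used in the study. By edgeR's quasi-likelihood test, 0 of the 9 were called, where 0.0145% of all tested genes were. At an unadjusted p under 0.05 it gave 1 of the 9, which was higher in Atrx-cKO, against 3.64% of all tested genes (2.05% lower and 1.59% higher). DESeq2's Wald test also called 0 of the 9, against 0.0885% of the genes it tested. The log2 fold changes of the 9 ran from -0.44 for *Gng8* to 0.22 for *Gng2*, with a median of 0.020, and that of all tested genes was 0.0050. In direction, 5 were above 0 and 4 below, and their adjusted p values in edgeR were 0.992 to 0.997.

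*Gng2*, the closest relative of *Gng4* and a broadly expressed partner of the main beta subunits, had 25.6, 28.0 and 32.3 CPM in Atrx-cKO and 25.2, 26.8 and 21.8 CPM in control. The ranges overlapped, and the log2 fold change was 0.22 (95% interval -0.063 to 0.50; adjusted p = 0.992 in edgeR). Scaled to exon length, the log2 ratio of *Gng4* to *Gng2* was 0.14 ± 0.616 (SD, n = 3) in control and -1.29 ± 0.213 (SD, n = 3) in Atrx-cKO. *Gng4* was therefore below *Gng2* in all Atrx-cKO libraries and in control replicate 1, at -0.57, and above it in control replicates 2 and 3. On the opposite strand, 897 of the 4390 exonic bases of *Gng2* (chromosome 14, 19872559 to 19977627, minus strand) overlap the noncoding gene *Gm48283*.

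*Gng12*, a widely expressed subunit on chromosome 6 from 66896397 to 67021350, was the one tested member whose groups did not overlap. It had 79.8, 74.9 and 72.8 CPM in Atrx-cKO and 65.4, 68.6 and 67.1 CPM in control. Every Atrx-cKO library was above every control, a separation found in 8.31% of all tested genes (4.3% higher and 4.01% lower in Atrx-cKO). The log2 fold change was 0.18 (95% interval 0.016 to 0.34), with an unadjusted p of 0.0355 and an adjusted p of 0.992 in edgeR, so *Gng12* did not pass. Because its groups do not overlap, leaving out a library cannot turn the sign, and the log2 fold change then ran from 0.14 to 0.20. The unadjusted p was 0.078 in DESeq2's Wald test and 0.079 in edgeR without a filter on low counts.

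*Gng5*, *Gng11* and *Gngt2* were close to even between the genotypes. *Gng5*, a ubiquitous subunit, had 57.9, 52.0 and 47.5 CPM in Atrx-cKO and 53.6, 54.4 and 56.7 CPM in control, with a log2 fold change of -0.065 (95% interval -0.27 to 0.14). *Gng11*, a farnesylated subunit found in vessel cells and platelets, had 37.8, 43.5 and 40.7 CPM in Atrx-cKO and 39.5, 36.5 and 39.1 CPM in control, a log2 fold change of 0.084 (95% interval -0.11 to 0.28). The groups of both genes overlapped. *Gngt2*, the cone transducin subunit that monocytes also express, had 27.0, 26.7 and 30.9 CPM in Atrx-cKO and 22.0, 31.6 and 29.8 CPM in control, a log2 fold change of 0.020 (95% interval -0.32 to 0.36). Its control replicate 1 was the lowest of the 6 libraries, and the sign of its difference turned without that library or without Atrx-cKO replicate 3. *Gngt2* shares 234 of 1877 exonic bases with *Abi3* on the opposite strand. *Abi3* had 190424 counts over all libraries, against 1257 to 2106 per library for *Gngt2*, so the level of *Gngt2* is uncertain without a known strand setting.

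*Gng3*, *Gng7* and *Gng8*, better known from neurons, were low but above the floor in every library. *Gng3* had 3.22, 2.75 and 2.68 CPM in Atrx-cKO and 2.80, 2.84 and 3.57 CPM in control, a log2 fold change of -0.090 (95% interval -0.53 to 0.35). *Gng7*, which pairs with the olfactory-type alpha subunit in the striatum, had 5.25, 4.48 and 5.98 CPM in Atrx-cKO and 4.07, 4.999 and 4.94 CPM in control, a log2 fold change of 0.17 (95% interval -0.24 to 0.57). *Gng8*, known from olfactory and vomeronasal neurons, had 46, 47 and 25 counts in Atrx-cKO and 44, 72 and 43 in control. All 3 genes had overlapping groups. The log2 fold change of *Gng8* was -0.44, with a wide 95% interval of -1.24 to 0.36. *Gng3* shares 398 of 1643 exonic bases with *Bscl2* on the opposite strand. *Bscl2* had 17168 counts over all libraries, against 157 to 189 per library for *Gng3*, so the level of *Gng3* is uncertain in the same way.

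*Gng10* had the fewest counts. There were 18, 22 and 21 counts in Atrx-cKO and 25, 39 and 12 in control, with a log2 fold change of -0.29 (95% interval -1.26 to 0.67). Of its 1314 exonic bases on chromosome 4 (59035088 to 59041903, plus strand), 946 are shared on the same strand with *Gm20503*, which had 0 counts in all libraries together. The tables tally ambiguous reads apart from the genes, so reads on the shared bases may be missing from *Gng10*, and its level is uncertain.

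**Figure D3:**
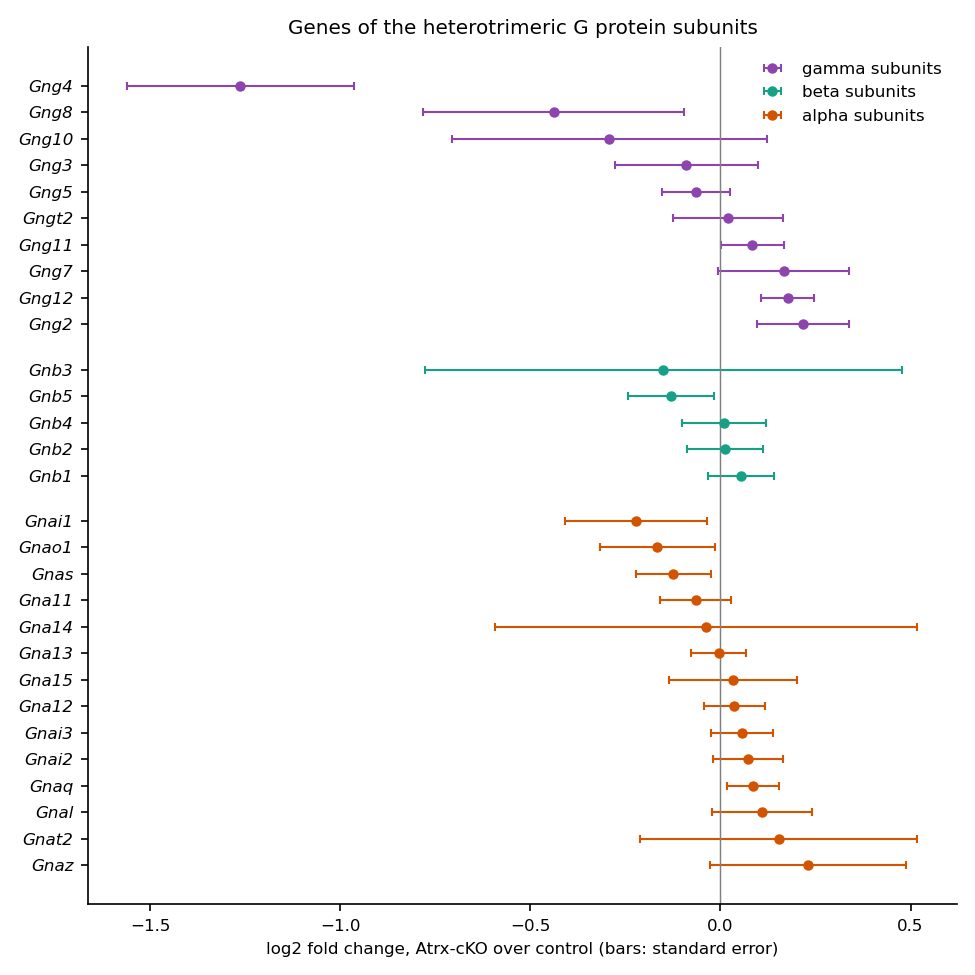
Log2 fold changes, Atrx-cKO over control (horizontal axis), with standard errors as bars, for the 10 gamma, 5 beta and 14 alpha subunit genes that passed the filter. *Gng4* was at -1.26 and was chosen for this difference, while the other gamma genes lay between -0.44 and 0.22, the beta genes between -0.15 and 0.054 and the alpha genes between -0.22 and 0.23.

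Levels of different genes were compared per kilobase of exon, since longer transcripts give more reads. On this scale *Gng11* was the highest member in both genotypes, at 41.7 ± 1.75 CPM per kb (SD, n = 3) in control and 44.2 ± 3.07 (SD, n = 3) in Atrx-cKO. *Gng5* followed with 19.8 ± 0.578 CPM per kb (SD, n = 3) in control, and then *Gngt2* with 14.8 ± 2.71 (SD, n = 3) and *Gng12* with 14.2 ± 0.339 (SD, n = 3), whose ranges overlapped. *Gng4* took the fifth place in control with 6.49 ± 2.47 CPM per kb (SD, n = 3), overlapping *Gng2* at 5.61 ± 0.577 (SD, n = 3). In Atrx-cKO it came after *Gng2*, with 2.71 ± 0.601 CPM per kb (SD, n = 3) against 6.52 ± 0.774 (SD, n = 3), and their ranges did not overlap. *Gng3*, *Gng7* and *Gng8* followed in both genotypes, at 1.87 ± 0.264, 1.23 ± 0.138 and 0.603 ± 0.102 CPM per kb (SD, n = 3) in control. *Gngt2* and *Gng12* traded places between genotypes, with overlapping ranges in both. With the length of the longest transcript in place of all exons, 10 of the 10 genes held their place in either genotype.

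**Figure D4:**
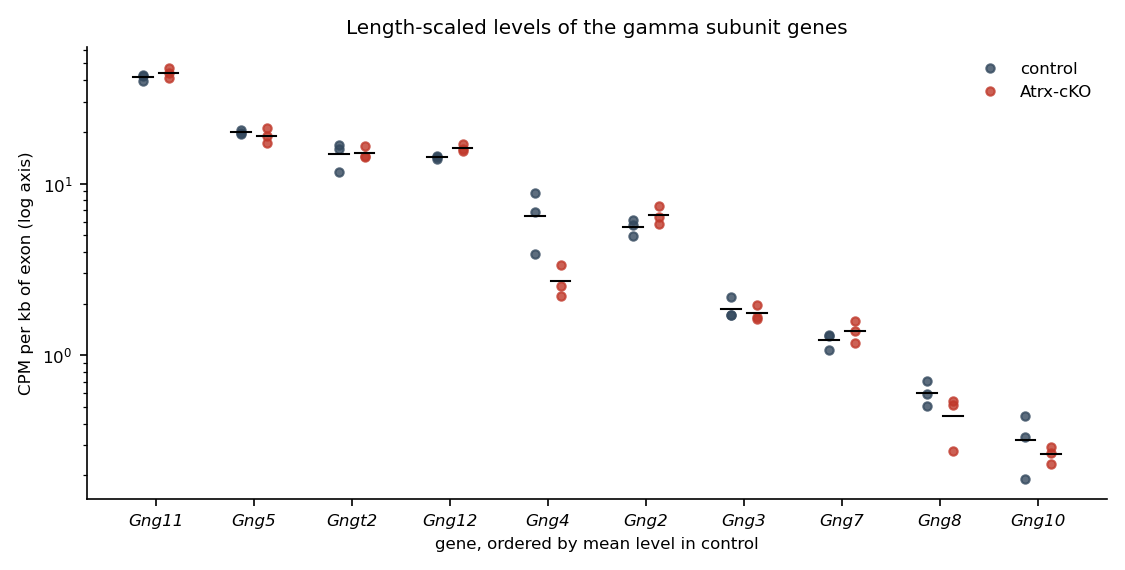
Levels of the 10 genes in CPM per kb of exon (log axis), ordered by their control mean, with a point for each library and a line at each group mean. *Gng4* lay between *Gng12* and *Gng3* in both genotypes, at 3.86 to 8.77 CPM per kb in control and 2.21 to 3.37 in Atrx-cKO.

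The summed level of the family was alike in the 2 genotypes. The 10 genes together gave 107 ± 4.83 CPM per kb (SD, n = 3) in control and 107 ± 1.36 (SD, n = 3) in Atrx-cKO. *Gng4* made up 2.39%, 2.04% and 3.13% of this sum in Atrx-cKO and 3.82%, 7.98% and 6.27% in control. *Gng11* made up 39.2% ± 3.15 (SD, n = 3) in control and 41.2% ± 2.36 (SD, n = 3) in Atrx-cKO. The 2 genes that end in a serine codon, *Gng11* and *Gngt2*, summed to 56.5 ± 1.84 CPM per kb (SD, n = 3) in control and 59.3 ± 3.24 (SD, n = 3) in Atrx-cKO. The other 8 summed to 50.2 ± 3.44 and 48.1 ± 1.90 CPM per kb (SD, n = 3). The ranges of the groups overlapped in both sums.

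Among gamma subunit genes outside the set, *Gng13*, known from taste and retina, had 78, 62 and 121 counts in Atrx-cKO and 109, 111 and 86 in control, at -0.27 on the log2 scale (standard error 0.28; edgeR's adjusted p = 0.992). *Gng13* shares 399 of 773 exonic bases with *Chtf18* on the opposite strand. *Chtf18* had 5178 counts over all libraries, so the level of *Gng13* is uncertain without a known strand setting. *Gngt1*, the rod transducin subunit, had 0 counts in all libraries.

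The partners of the gamma subunits did not differ beyond the threshold. Of the 5 beta subunit genes, 0 were called in either direction and 0 had an unadjusted p under 0.05 in edgeR, and their median log2 fold change was 0.0087. *Gnb1* and *Gnb2* had the highest CPM. *Gnb1* averaged 270 ± 3.002 CPM (SD, n = 3) in control and 280 ± 20.5 (SD, n = 3) in Atrx-cKO, and *Gnb2* averaged 228 ± 14.3 and 229 ± 22.1 CPM (SD, n = 3). *Gnb5*, the beta subunit that binds RGS proteins of the R7 family in place of a gamma subunit, was at -0.13 (standard error 0.11). Of the 16 alpha subunit genes, 14 passed the filter, 0 were called, 0 had an unadjusted p under 0.05 in edgeR, and the median was 0.035. *Gnas*, which encodes the stimulatory alpha subunit used by the parathyroid hormone receptor, averaged 866 ± 74.4 CPM (SD, n = 3) in control and 795 ± 15.4 (SD, n = 3) in Atrx-cKO. *Gnai2*, an inhibitory alpha subunit, averaged 559 ± 11.1 and 587 ± 43.0 CPM (SD, n = 3). Of the 14 that passed the filter, 1 had groups that did not overlap, a share no higher than the 8.31% of all tested genes. It was *Gnaq*, named after its values were seen, at 92.7 to 98.3 CPM in control and 98.4 to 103 in Atrx-cKO.

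Genes that build and lipidate the complex did not pass either. Of the 10 listed, 9 passed the filter, 0 were called, 0 had an unadjusted p under 0.05 in edgeR, and the median log2 fold change was 0.0072. *Zmpste24*, a protease that trims prenylated proteins, was at 0.039 (standard error 0.075). *Ric8a* and *Ric8b*, chaperones of alpha subunits, were at 0.032 (standard error 0.071) and -0.091 (standard error 0.085).

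Targets of the beta-gamma pair did not differ beyond the threshold. Of the 17 effectors and receptor kinases listed, 16 passed the filter, 0 were called, and 1 had an unadjusted p under 0.05 in edgeR, with a median log2 fold change of -0.0084. Groups did not overlap in 1 of the 16, against 8.31% of all tested genes, and 3.64% of all tested genes had such a p, so both counts were near the background. The gene in both counts was *Cacna1a*, the pore of the P/Q-type calcium channel that beta-gamma pairs inhibit. It had 183, 222 and 257 counts in Atrx-cKO and 300, 408 and 324 in control, so every Atrx-cKO library was below every control in CPM. Its log2 fold change was -0.68 (standard error 0.18, unadjusted p = 0.00700 and adjusted p = 0.992 in edgeR). *Grk2*, the receptor kinase that beta-gamma pairs recruit, and *Prex1*, a Rac activator, were the most abundant of the list, at 0.067 (standard error 0.10) and -0.099 (standard error 0.089). The log2 fold changes of the 16 ran from -1.27 for *Kcnj3* to 0.72 for *Cacna1b*. Both genes, named after their values were seen, had overlapping groups. *Kcnj3* had 121 counts in control replicate 2 and 15 to 27 in the other libraries. Of the 6 genes of R7 RGS proteins and their anchors, 0 were called and 0 had an unadjusted p under 0.05 in edgeR, with a median of -0.055. *Rgs7*, which speeds GTP hydrolysis by inhibitory alpha subunits, had 57, 100 and 131 counts in Atrx-cKO and 88, 279 and 183 in control, overlapping groups at -0.95 on the log2 scale (standard error 0.44; edgeR's adjusted p = 0.992). Its anchor *Rgs7bp* was at 0.44 (standard error 0.32).

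The genes whose pattern over the 6 libraries was most like that of *Gng4* were sought among 16170 tested genes with a mean of at least 1 CPM, by Pearson's correlation of log2(CPM + 0.5). The first was *Tmem35a*, a chaperone of nicotinic receptors, at r = 0.995. It had 2.33, 2.08 and 2.70 CPM in Atrx-cKO and 3.44, 6.35 and 4.98 CPM in control, the same order of control libraries as in *Gng4*. *Zscan2*, *Gm48952* and *Vangl1*, a planar cell polarity gene, were at 0.989, 0.988 and 0.985, with small log2 fold changes of -0.17, -0.29 and -0.12. In all, 197 genes (1.22%) had r above 0.9. The genes share the 6 libraries and their genotypes, and these correlations are a description only.

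None of the genes around *Gng4* on chromosome 13 passed the threshold. Of the 10 tested genes on either side, between 12395027 and 15463736, edgeR called 0 of 20 and 0 had an unadjusted p under 0.05. Their median log2 fold change was 0.023. Groups did not overlap in 4 of the 20 (*Gm2423*, *Gm48682*, *B3galnt2* and *AW209491*, named after their values were seen), against 8.31% of all tested genes. *Lyst*, a lysosomal trafficking gene that ends just before *Gng4*, averaged 135 ± 13.6 CPM (SD, n = 3) in control and 133 ± 7.77 (SD, n = 3) in Atrx-cKO. The nearest tested gene after it, the little-expressed *Gm47884*, was at -0.77 (standard error 0.51) with overlapping groups. The lowest p values were those of *Gpr137b* and its pseudogene *Gpr137b-ps*, at -0.29 (standard error 0.13) and -0.27 (standard error 0.14). Also within the 20, and named after its value was seen, was *Ggps1*, the enzyme that makes the geranylgeranyl donor for the lipid of *Gng4*, at 0.088 (standard error 0.100).

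**Figure D5:**
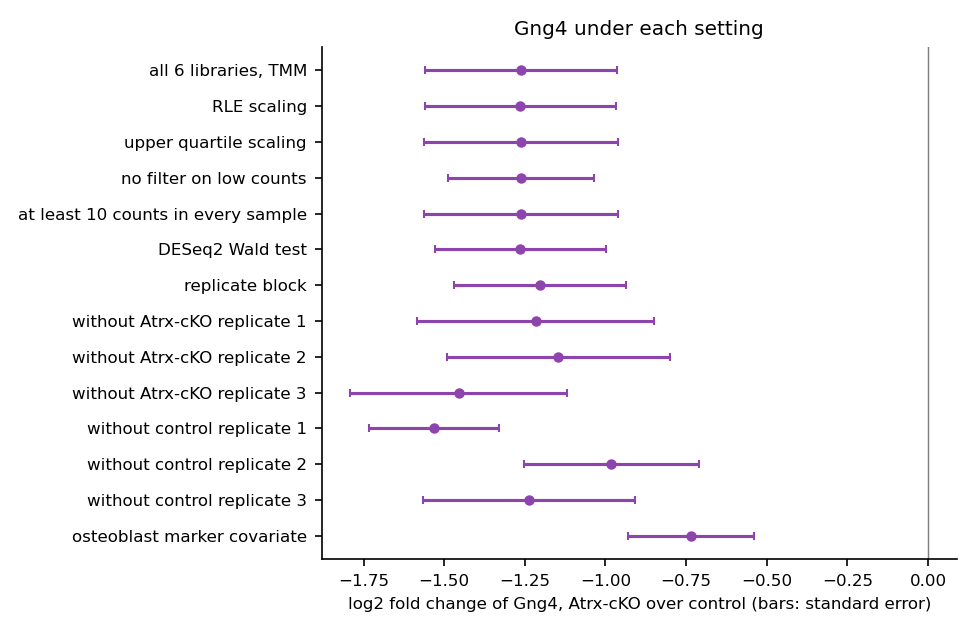
Log2 fold change of *Gng4*, Atrx-cKO over control (horizontal axis, bars standard errors), with all 6 libraries and under each other setting. All values lay below 0, from -1.53 without control replicate 1 to -0.73 with the osteoblast marker covariate.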

How the data were processed

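Counts per Ensembl gene were deposited by the authors as 1 table of raw counts per library, from polyadenylated RNA read in pairs by an Illumina HiSeq. The library kit is labelled strand specific. The submitters' processing notes name GRCm38 and DESeq2, while the aligner, the counting program, its strand setting and the annotation release are not given in the sources used here. Each table ends in 5 summary entries, which entered neither the library sizes nor any test, and reads on no feature made up 51.6% to 52.4% of its total. Identifiers were named by GENCODE M21 on GRCm38, which matched 55141 of 55401. Without a known strand setting, reads of genes that overlap on opposite strands cannot be told apart.

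Groups were taken from the sample titles. Counts were fitted with edgeR 4.0.16 in R 4.3.3 (TMM, filterByExpr at its defaults, glmQLFit and glmQLFTest, genotype alone), with Benjamini-Hochberg adjustment over the 20636 genes tested. The 95% intervals used the fit's standard errors and degrees of freedom. DESeq2 1.42.0 was an alternative. The fits were tested on simulated counts. Libraries of 1 genotype differed by more than sampling noise (chi-square per degree of freedom 15.8 to 51.4 in Atrx-cKO and 91.4 to 137 in control). Exon length was that of merged exons. Residues and identities came from translating GENCODE coding sequences, aligned with BLOSUM62 and free gaps at the ends.

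The members and the gene lists were chosen with earlier results of these data known. Named genes were the 10 members, and of each other list the 2 most abundant genes, the gene with the lowest p and any called, with the 5 genes most like *Gng4* (1 is not reported here) and, of its neighbors, the nearest on each side and the 2 with the lowest p. No permutation test was used, since the smallest p of an exact 2-sided one is 0.1 for groups of 3.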

Additional observations from a re-analysis of the deposited data

How the results depend on the processing

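*Gng4* stayed lower in Atrx-cKO under every setting tried. Its log2 fold change was -1.26 with RLE scaling, upper quartile scaling, both other filters and DESeq2, ran from -1.53 to -0.98 without 1 library, and was -0.73 with the osteoblast marker covariate, added after the data were seen. Its groups do not overlap, so leaving out a library cannot turn the sign. No setting called any of the other 9 genes. Without 1 library, signs turned for 3 genes, with ranges of -0.12 to 0.12 for *Gngt2*, -0.56 to 0.0074 for *Gng10* (without control replicate 2 at the upper end) and -0.18 to 0.018 for *Gng3*. Over all genes, 3 were called, against 5 without a filter, 1 with at least 10 counts in every sample, 23 with DESeq2, 1 with the covariate, and 0 to 5 without 1 library (5 without control replicate 3, and 0 when control replicate 2 or either of Atrx-cKO replicates 1 and 2 was left out); the cause was not tested. Replicate numbers did not pair the libraries (correlations of deviations -0.0032, 0.11 and -0.10), and with the replicate block *Gng4* was at -1.20 and 0 genes were called. *Gng8* and *Gng10* had few counts, and their intervals are the widest of the family. For *Gng10*, reads on the bases shared with *Gm20503* may also be missing.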

Other observations

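The annotation holds pseudogenes named after *Gng2* and *Gng5*. *Gng2-ps1*, on chromosome 4, had 0 counts in every library. *Gng5-ps*, on chromosome 16, had 0 to 7 counts per library, against 2698 to 3622 counts of *Gng5*.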
